A study of Mus musculus with 12 samples.

Results

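The 10 genes described here encode core machinery that fuses, divides and removes mitochondria. These are Mfn1, Mfn2 and Opa1 (fusion), Oma1 (a protease of Opa1), Dnm1l, Fis1 and Mff (fission), and Pink1, Bnip3 and Fundc1 (mitophagy). They were chosen by name, as every probe set annotated with exactly 1 of these symbols, which gave 25 probe sets out of 45101 on the array, between 1 and 4 for a gene. A filter on dim signals kept 22 of the 25 probe sets and at least 1 for each of the 10 genes. The 3 that it removed were 1 each for Mfn1 (log2 signal 2.78 to 4.37 over the 12 arrays), Mff (2.58 to 3.38) and Mfn2 (2.04 to 2.11).

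RNA of whole CD1 mouse hearts was measured on 12 Affymetrix arrays in 4 groups of 3. The groups were DN-MCU adults, which expressed a dominant negative construct of the mitochondrial calcium uniporter and were 42 days old, their WT adult littermates of the same age, DN-MCU neonates at 1 day, and WT neonates at 1 day. All adults were labelled male, whereas the sex of the neonates was labelled unknown, so age and sex cannot be told apart in the comparisons of age. The sources used here do not give the promoter that drives the construct, and whole hearts hold many cell types, so fewer cells of a type and less RNA per cell cannot be told apart either.

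MCU is the pore-forming subunit through which calcium enters the mitochondrial matrix, and the dominant negative form blocks that pore. Mitochondria of heart muscle join when the mitofusins Mfn1 and Mfn2 tether and fuse the outer membranes and Opa1, a dynamin-like GTPase, fuses the inner membranes and shapes the cristae. The protease Oma1 cleaves Opa1 when the membrane potential drops, and division follows when the GTPase Drp1, encoded by Dnm1l, is drawn to the surface by adaptors such as Fis1 and Mff. Damaged mitochondria are marked by the kinase Pink1 or held to the autophagosome by the receptors Bnip3 and Fundc1, and much of this machinery is known to be remodelled as the heart matures after birth.

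Values below are log2 signals as deposited, in which 1 unit is a doubling of signal, and a level of one probe set is not comparable with that of another. Of 2 probe sets for Mcu, the one that separated the genotypes gave 8.85, 9.64 and 10.4 in DN-MCU adults, against 4.55, 2.45 and 3.06 in WT adults, and 8.73, 8.44 and 9.28 in DN-MCU neonates, against 2.90, 3.31 and 3.24 in WT neonates, so every array matched its genotype label. The other Mcu probe set overlapped between genotypes, with 7.39, 7.54 and 8.14 in DN-MCU adults, against 7.84, 7.72 and 7.41 in WT adults, and 8.01, 8.03 and 7.91 in DN-MCU neonates, against 7.70, 8.18 and 7.97 in WT neonates. Which part of the transcript each of them reads was not tested. The 7 cardiomyocyte markers averaged 14.6 to 15.3 on every array, so the hearts carried the markers of their labelled tissue. Array medians lay between 3.24 and 3.46, but the arrays of a group were not equally alike. The mean correlation of an array with the others of its group was 0.991 to 0.993 in neonates, 0.931 to 0.958 in DN-MCU adults and 0.970 to 0.981 in WT adults. The lowest arrays of the adult groups were DN-MCU adult 3 (0.931) and WT adult 1 (0.970), and values without them are given where they bear on a result.

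The promoters of Pink1 and Bnip3 are shown because probe sets of these genes had the smallest p of the set in adults, and short stretches of the Opa1 and Oma1 promoters are shown because they share a sequence with them. All are from RefSeq (GRCm38.p6), 5′ to 3′ on the strand of the gene, and span 250 bases before to 50 bases after the annotated start (Pink1, chr4:138326247-138326546, minus strand; Bnip3, chr7:138909457-138909756, minus strand) or 30 bases within that window (Opa1, chr16:29579265-29579294, plus strand; Oma1, chr4:103313813-103313842, plus strand). Capitals mark matches to the NRF1 motif (GCGCA, any 1 base, then GCGC) on either strand, and in Bnip3 also ACGTG, the core of the hypoxia response element.
Pink1: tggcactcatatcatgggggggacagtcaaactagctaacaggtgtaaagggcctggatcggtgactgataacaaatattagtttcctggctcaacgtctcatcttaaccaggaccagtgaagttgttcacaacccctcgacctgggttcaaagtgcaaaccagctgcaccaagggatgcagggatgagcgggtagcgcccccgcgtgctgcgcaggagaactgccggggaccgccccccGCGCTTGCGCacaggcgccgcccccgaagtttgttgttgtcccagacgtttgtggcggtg
Bnip3: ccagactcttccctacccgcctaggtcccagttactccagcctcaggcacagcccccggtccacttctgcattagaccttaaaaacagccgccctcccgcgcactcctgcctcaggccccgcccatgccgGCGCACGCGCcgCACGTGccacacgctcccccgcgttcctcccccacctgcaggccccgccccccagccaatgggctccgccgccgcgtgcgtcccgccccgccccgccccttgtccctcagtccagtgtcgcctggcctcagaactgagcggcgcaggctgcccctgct
Opa1: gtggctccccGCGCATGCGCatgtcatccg
Oma1: ggaaaggtgtGCGCCTGCGCggagccggct

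The NRF1 motif was in the promoters of 4 of the 10 genes and begins 59 bases before the start in Opa1, 23 in Oma1, 10 in Pink1 and 120 in Bnip3. NRF1 is a transcription factor of nuclear genes for mitochondrial proteins, and its motif was in 4.6% of the 32851 promoters in the reference table. Some of the 10 genes have several promoters there, and by promoter the motif was in 4 of their 15. ACGTG on either strand was in 19.6% of promoters and in 3 of those 15, which belong to Mfn2 and Bnip3. In Bnip3, a known target of the hypoxia-inducible factor, the match on each strand overlaps the other within CACGTG, and the first begins 108 bases before the start. TGATGNAA (the ATF4 element), AAGGTCA (estrogen-related receptors) and GTAAACA (FOXO) were in 3.97%, 4.72% and 3.65% of promoters, and these letters were not in the windows of the 10 genes. The 5 motifs were chosen after the expression values were seen, and a match describes the letters only.

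**Figure D1:**
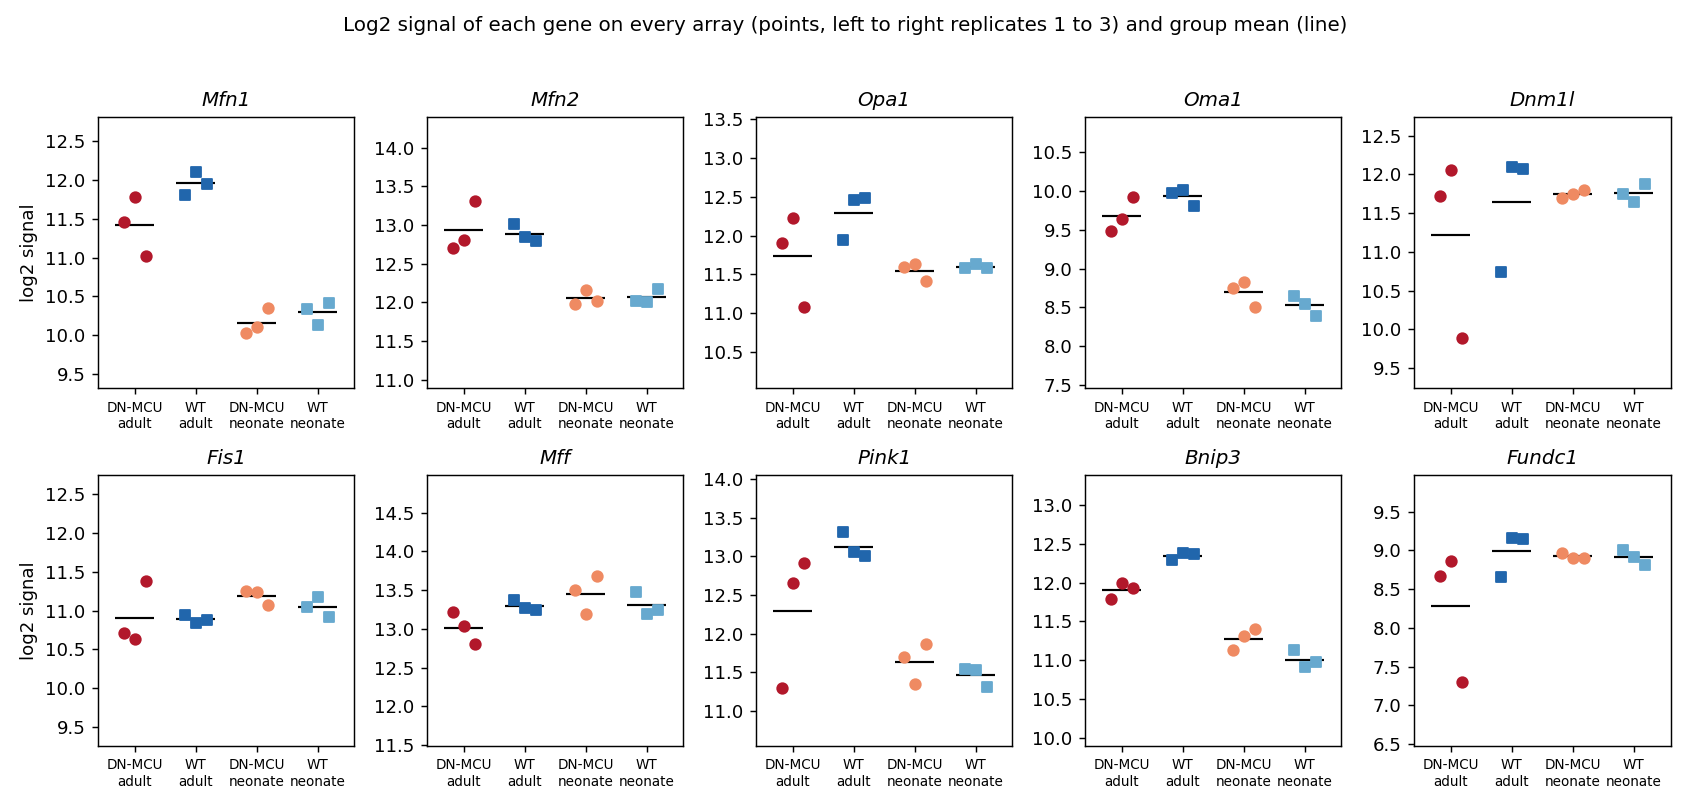
Log2 signal (vertical axis) of the probe set that stands for each of the 10 genes on each of the 12 arrays, by group, with bars at the mean of 3 arrays. In DN-MCU adults, every Pink1 and Bnip3 point lies below every WT adult point, and 1 adult array of each genotype lies far below the others for Dnm1l.

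The first question was whether blocking the uniporter went with another level of this machinery in the adult heart. In adults, Pink1 and Bnip3, both of mitophagy, had lower signals on all 3 DN-MCU arrays than on any WT array, as did Mfn1 and Mff. None of the 10 genes passed the threshold of an adjusted p under 0.05 (limma on the 6 adult arrays, Benjamini-Hochberg over 24176 probe sets), where 0.463% of all probe sets passed. At an unadjusted p under 0.05 there was 1 of 10 (Bnip3), against 10.3% of all probe sets, and with all 12 arrays in one fit again 0 of 10 passed, against 4.77% of all probe sets. The DN-MCU minus WT difference was negative for 8 of the 10 genes, with a median of -0.43, against -0.02 and 53.0% negative over all probe sets. That median was -0.23 without DN-MCU adult 3 and -0.60 without DN-MCU adult 2. Groups did not overlap, with DN-MCU lower, for 4 of the 10 genes and for 8.46% of all probe sets.

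Pink1, the kinase that builds up on depolarised mitochondria, was measured by 2 probe sets. The brighter one gave 11.30, 12.66 and 12.91 in DN-MCU adults, against 13.31, 13.06 and 13.005 in WT adults. All DN-MCU values lay below the WT values, but DN-MCU adult 1 differed from the mean of the other DN-MCU adults by -1.49, and the difference of -0.83 had an SE of 0.44 (adjusted p = 0.608 by limma). Without DN-MCU adult 1 it was -0.34. The second probe set spread less, with 11.38, 11.58 and 11.94 in DN-MCU adults, against 12.24, 12.18 and 12.13 in WT adults. Its difference was -0.55 (SE 0.20; unadjusted 95% interval -1.03 to -0.07; 0.68-fold), with an adjusted p of 0.414 by limma on the adult arrays and 0.0735 in the fit of all 12 arrays. With arrays weighted by their scatter it was -0.67 with an adjusted p of 0.0456 by limma, the one setting tried in which a member passed in adults. That setting called 964 of all probe sets, against 112 in the main fit. For both probe sets, then, the direction was the same on each array, and the size was not fixed by 3 arrays a group.

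Bnip3, an outer-membrane receptor that binds the autophagosome protein LC3 and is induced by low oxygen, gave 11.79, 11.999 and 11.93 in DN-MCU adults, against 12.29, 12.38 and 12.38 in WT adults. The groups did not overlap, and neither spread widely (SD 0.11 in DN-MCU adults and 0.053 in WT adults, n = 3 each). The difference was -0.44 (SE 0.15; interval -0.81 to -0.07; 0.74-fold), with an unadjusted p of 0.0267 and an adjusted p of 0.389 by limma. Fundc1, another outer-membrane mitophagy receptor, gave 8.67, 8.86 and 7.30 in DN-MCU adults, against 8.66, 9.16 and 9.15 in WT adults. Its groups overlapped, and the difference of -0.71 (SE 0.44; adjusted p = 0.681 by limma) was -0.22 without DN-MCU adult 3.

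Among the fusion genes, Mfn1 gave 11.47, 11.79 and 11.02 in DN-MCU adults, against 11.81, 12.11 and 11.96 in WT adults. The groups did not overlap, though the highest DN-MCU value lay close to the lowest WT value, and the difference was -0.53 (SE 0.24; interval -1.12 to 0.05; adjusted p = 0.527 by limma). For the other kept Mfn1 probe set the groups overlapped, at -0.42 (SE 0.28). Mfn2, which also ties mitochondria to the sarcoplasmic reticulum, gave 12.71, 12.81 and 13.30 in DN-MCU adults, against 13.02, 12.85 and 12.80 in WT adults. It did not follow Mfn1: the values overlapped in full, and the difference was 0.05 (SE 0.21; interval -0.47 to 0.57). Opa1 gave 11.90, 12.23 and 11.08 in DN-MCU adults, against 11.95, 12.46 and 12.48 in WT adults, a difference of -0.56 (SE 0.34; adjusted p = 0.671 by limma), and its other probe sets gave -0.37 and -0.39 with overlapping groups. Without DN-MCU adult 3 the brightest Opa1 probe set gave -0.23 and Mfn1 gave -0.33. Oma1, the protease that cleaves Opa1, gave 9.49, 9.64 and 9.92 in DN-MCU adults, against 9.97, 10.02 and 9.81 in WT adults. Its difference was -0.25 (SE 0.18), again with overlap.

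Of the fission genes, Dnm1l had the widest spread of the set. Its brightest probe set gave 11.72, 12.05 and 9.89 in DN-MCU adults, against 10.75, 12.09 and 12.08 in WT adults, so that 1 array in each genotype was low, and the difference of -0.42 had an interval of -2.06 to 1.22. Without DN-MCU adult 3 the difference was 0.25, and without that array and WT adult 1 together it was -0.20. WT adult 1 was low for Dnm1l (-1.34 from the mean of the other WT adults), Opa1 (-0.52) and Fundc1 (-0.49). Leaving out WT adult 1 alone makes the differences of these genes more negative, by amounts not given here. Mff, the main adaptor for Drp1, gave 13.21, 13.03 and 12.80 in DN-MCU adults, against 13.37, 13.27 and 13.25 in WT adults. The DN-MCU values lay just below the WT values here and for 1 of the other 2 kept Mff probe sets, and the difference was -0.28 (SE 0.17; adjusted p = 0.680 by limma). Fis1, an outer-membrane anchor of the fission machinery, gave 10.71, 10.63 and 11.38 in DN-MCU adults, against 10.94, 10.84 and 10.88 in WT adults, with WT values inside the DN-MCU range and a difference of 0.02 (SE 0.24).

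**Figure D2:**
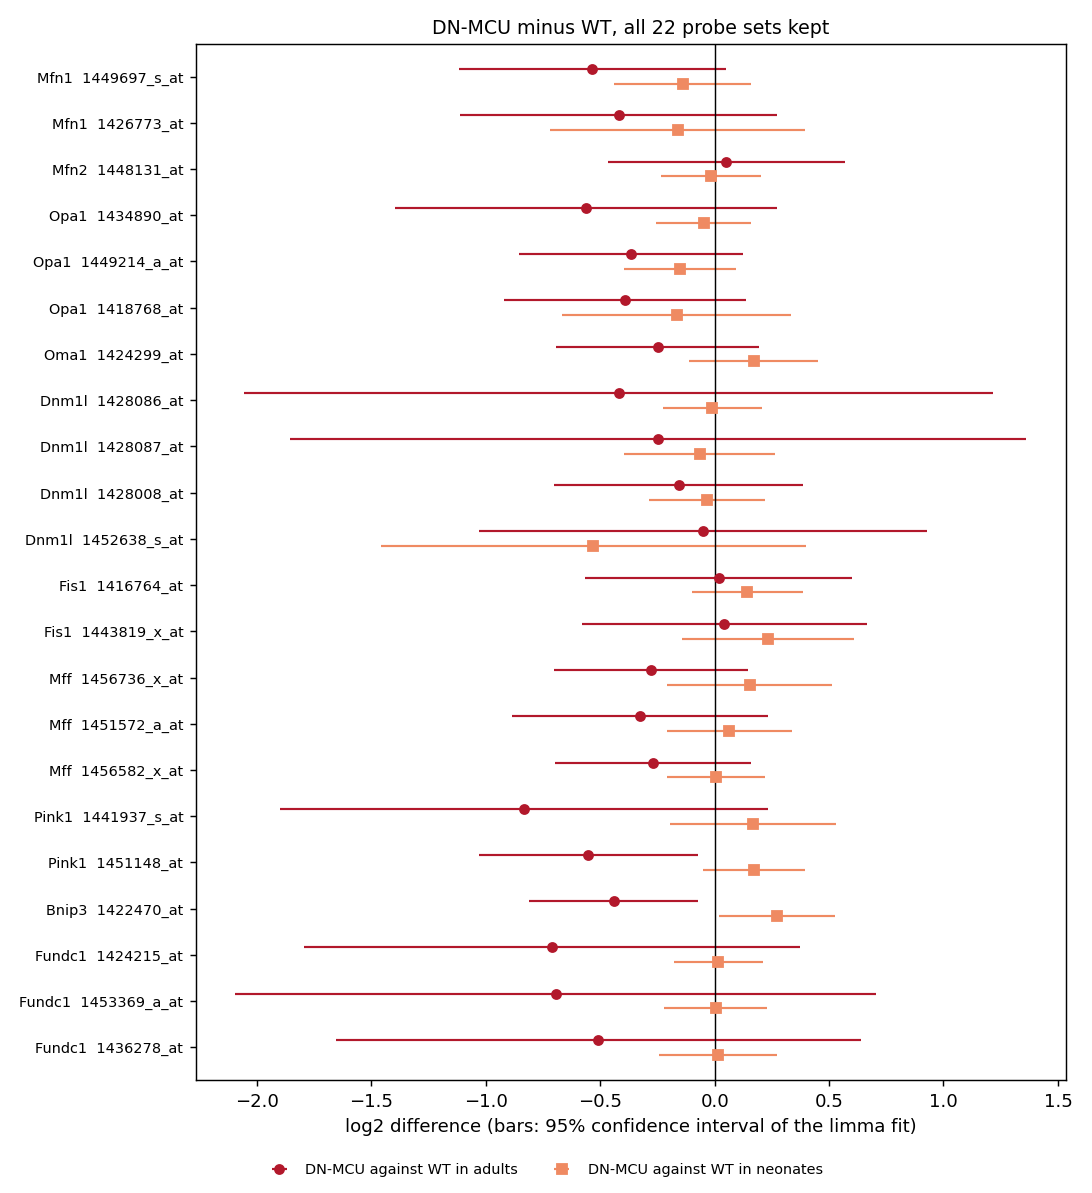
DN-MCU minus WT difference (log2, horizontal axis) of each kept probe set of the 10 genes in adults and in neonates, with unadjusted 95% intervals from limma, 3 arrays a group. In adults 19 of 22 differences are negative, and the intervals cross 0 except for Bnip3 and the second Pink1 probe set. In neonates most differences lie nearer 0 than in adults, with both Fis1 probe sets and a dim Dnm1l probe set (-0.53) among the exceptions.

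Marker lists of cell types were set beside these values. The mean of the 4 atrial markers was 13.93 to 13.94 in DN-MCU adults, against 14.28 to 14.33 in WT adults, with no overlap, and none of them was at or below the filter level. The list did not move as one: Myl7 (13.76 in DN-MCU adults and 14.44 in WT adults) and Sln (12.22 in DN-MCU adults and 13.56 in WT adults) were lower in DN-MCU adults by their means, and Myl4 (14.48 in DN-MCU adults and 14.29 in WT adults) and Nppa (15.28 in DN-MCU adults and 14.94 in WT adults) were higher. The 7 cardiomyocyte markers averaged 14.998 to 15.22 in DN-MCU adults, against 15.16 to 15.33 in WT adults. Fibroblast (10.8 to 11.5 in both genotypes), macrophage (9.83 to 10.2 in DN-MCU adults and 9.77 to 10.2 in WT adults) and endothelial lists (9.26 to 9.84 in DN-MCU adults and 9.57 to 9.70 in WT adults) overlapped. The part of these markers in the member differences was not tested.

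In neonates the same comparison gave a median absolute difference of 0.14 for the 10 genes, against 0.43 in adults, and of 0.10 over all probe sets, against 0.26 in adults. No member passed the threshold in DN-MCU against WT neonates (limma on the 6 neonatal arrays), where 0.00414% of all probe sets passed, and 1 of 10 (Bnip3) had an unadjusted p under 0.05, against 7.27% of all. With all 12 arrays fitted, 0 passed as well, against 0.0165% of all probe sets. The differences were positive for 6 and negative for 4 genes, with a median of 0.08, against 0.01 over all probe sets.

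Bnip3 gave 11.13, 11.31 and 11.40 in DN-MCU neonates, against 11.13, 10.91 and 10.97 in WT neonates. The lowest DN-MCU value equalled the highest WT value at this rounding, and the difference was 0.27 (SE 0.11; interval 0.02 to 0.53; 1.21-fold; adjusted p = 0.664 by limma). Pink1 gave 11.07, 10.91 and 10.92 in DN-MCU neonates, against 10.78, 10.90 and 10.70 in WT neonates by its second probe set. It was the 1 probe set of the 22 whose DN-MCU neonates all lay above the WT neonates, as 7.51% of all probe sets did, with a difference of 0.17 (SE 0.09; interval -0.05 to 0.40; adjusted p = 0.739 by limma). For the brighter Pink1 probe set the difference was 0.17 as well (SE 0.15), with overlap.

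No other member passed at birth either, and Oma1 differed as much as Pink1 did (0.17 each). Mfn2 averaged 12.05 ± 0.10 in DN-MCU neonates and 12.07 ± 0.09 in WT neonates (SD, n = 3 each), and Dnm1l averaged 11.74 ± 0.06 in DN-MCU neonates and 11.76 ± 0.12 in WT neonates. Their 95% intervals, -0.24 to 0.20 for Mfn2 and -0.23 to 0.21 for Dnm1l, bound any difference more tightly than the adult intervals. Oma1, Fis1 and Mff differed by 0.17, 0.14 and 0.15, Mfn1 by -0.14 and Opa1 by -0.05, all with overlapping groups. Fundc1 differed by 0.01 (interval -0.18 to 0.21). Among the marker lists, epicardial (7.29 to 7.61 in DN-MCU neonates and 7.97 to 8.68 in WT neonates), erythroid (5.78 to 6.23 in DN-MCU neonates and 6.27 to 7.10 in WT neonates), macrophage (6.78 to 7.19 in DN-MCU neonates and 7.29 to 7.41 in WT neonates) and atrial means (12.7 to 13.9 in DN-MCU neonates and 13.97 to 14.26 in WT neonates) did not overlap either, and their part in the differences was not tested.

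Whether the difference between genotypes changed with age was tested as the adult difference minus the neonatal one, on all 12 arrays. No member passed (smallest adjusted p = 0.136 by limma), where 0.786% of all probe sets passed, and 1 of 10 had an unadjusted p under 0.05, against 9.22% of all. It was negative for 9 of the 10 genes, with a median of -0.43, against -0.03 over all probe sets. Bnip3 came nearest, at -0.71 (SE 0.18; interval -1.11 to -0.32; unadjusted p = 0.00242, adjusted p = 0.136 by limma), with -0.44 in adults and 0.27 in neonates. The second Pink1 probe set gave -0.73 (SE 0.22; adjusted p = 0.243 by limma), with -0.55 in adults and 0.17 in neonates. Without DN-MCU adult 3, the second Pink1 probe set passed (-0.88, adjusted p = 0.0223 by limma) and Bnip3 did not (-0.73, 0.0609). Without DN-MCU adult 3 and WT adult 1 together, the adjusted p was 0.0228 for that probe set and 0.0466 for Bnip3 (-0.76), by limma in each case. With array weights both passed as well, with adjusted p of 0.00896 for it and 0.0476 for Bnip3 by limma. These settings also called more of all probe sets, against 190 in the main fit. The counts were 636 without DN-MCU adult 3, 1112 without both arrays and 1216 with array weights. Leaving out both arrays was chosen after the data were seen. The brighter Pink1 probe set (-1.002, SE 0.49; adjusted p = 0.591 by limma) passed in none of these settings.

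The arrays that stood apart did so for some members and not for others. On DN-MCU adult 3, Dnm1l differed from the mean of the other DN-MCU adults by -1.999 by its brightest probe set and by -1.92 by the next, where the median absolute gap over all kept probe sets was 0.568 and 5.99% of them were as low. All 3 Fundc1 probe sets were low on that array, at 7.30, 6.35 and 5.93, against 8.67 and 8.86, 8.26 and 8.26, and 7.09 and 7.37 on the other DN-MCU adult arrays. The gap was -0.99 for Opa1 and -0.61 for Mfn1, whereas Fis1 was 0.70 higher, Mfn2 0.55 higher and the second Pink1 probe set 0.46 higher. Bnip3 was level with the others on it, at 0.04 higher. WT adult 1 had the same members low: the gap to the other WT adults was -1.34 for Dnm1l, -0.52 for Opa1 and -0.49 for Fundc1. Of all kept probe sets, 17.5% were as low as Opa1 and 18.5% as low as Fundc1 on WT adult 1, and 18.8% as low as Opa1 on DN-MCU adult 3, so these gaps were not rare on those arrays. The Opa1 probe sets also disagreed, with 1 of the dimmer ones 0.32 higher on WT adult 1 and the other 0.27 higher on DN-MCU adult 3. Marker lists stood apart on these arrays and on others. The epicardial mean was 7.42 on WT adult 1, against 5.24 and 5.81 on the other WT adults, and the fibroblast mean was 11.499 there, against 10.78 and 10.95. The fibroblast mean was about as high on DN-MCU adult 1 (11.46, against 10.80 and 11.01 on the other DN-MCU adults). The adipocyte mean was 6.16 on DN-MCU adult 3, 7.18 on DN-MCU adult 1 and 8.27 on DN-MCU adult 2. The part of the marker lists in the member gaps was not tested. Without DN-MCU adult 3 and WT adult 1, the adult differences were -0.68 for the second Pink1 probe set (adjusted p = 0.128 by limma), -0.49 for Bnip3 (0.180), -0.41 for Mfn1, -0.41 for Opa1 and -0.39 for Fundc1, with a median over the 10 genes of -0.37.

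**Figure D3:**
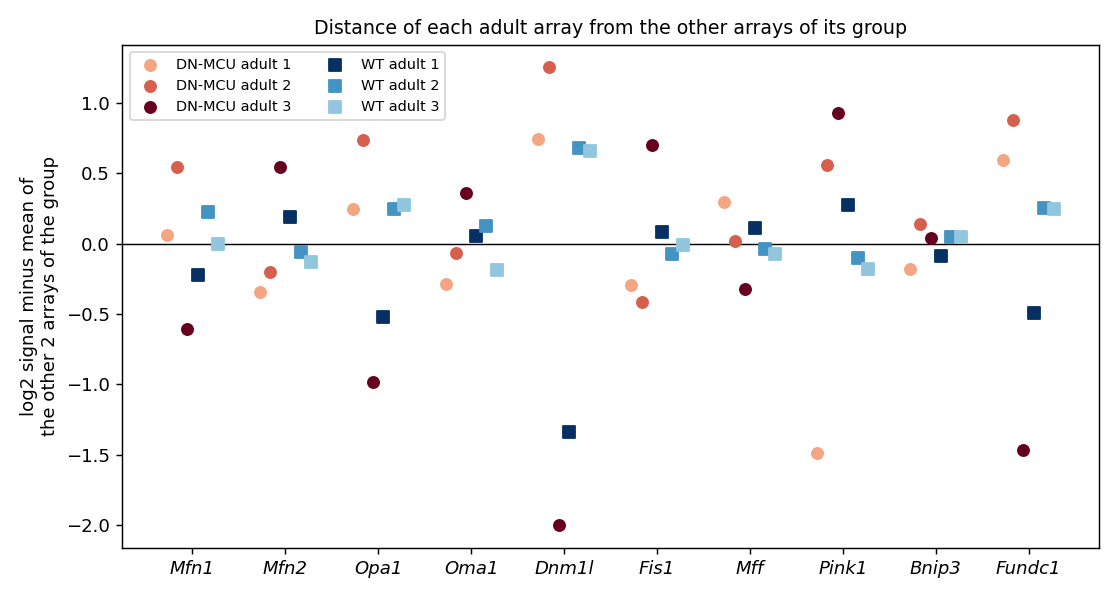
Gap (log2, vertical axis) between each of the 6 adult arrays and the mean of the other arrays of its group for the probe set that stands for each gene. On DN-MCU adult 3 and WT adult 1 (darkest points), Dnm1l, Fundc1 and Opa1 lie below 0 and Bnip3 lies near 0.

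Correlations between members moved with the same arrays. Over the 12 arrays, with the mean of each age subtracted, r was 0.970 between Opa1 and Fundc1, 0.900 between Dnm1l and Fundc1 and -0.835 between Mfn2 and Dnm1l. Without DN-MCU adult 3 and WT adult 1, these became 0.879, 0.590 and 0.672 over 10 arrays, so the opposition of Mfn2 and Dnm1l rested on those arrays. Pink1, by its brighter probe set, and Bnip3 gave 0.670 with them and 0.752 without. Both values include DN-MCU adult 1, where that Pink1 probe set differed by -1.49 from the mean of the other DN-MCU adults. The points share genotype as well as array.

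The second comparison was of age. In WT hearts, 6 of the 10 genes rose in adults relative to neonates: Mfn1, Mfn2, Opa1, Oma1, Pink1 and Bnip3. None fell, and the remaining 4, all the fission genes and Fundc1, did not pass. Higher in adults were 22.6% of all probe sets and lower were 28.2% (limma on the 6 WT arrays, 50.8% called in all), so calls are common in this comparison. The median difference of the members was 0.76, against -0.07 over all probe sets, and the groups did not overlap, with adults higher, for 6 of 10 genes and 29.2% of probe sets. With all 12 arrays fitted, 6 members and 45.1% of probe sets passed.

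Mfn1 averaged 11.96 ± 0.15 in WT adults and 10.30 ± 0.15 in WT neonates (SD, n = 3 each), a 3.17-fold rise (log2 1.66, SE 0.14; adjusted p = 0.000179 by limma). Its partner Mfn2 averaged 12.89 ± 0.11 in WT adults and 12.07 ± 0.09 in WT neonates, a smaller rise of 1.77-fold (adjusted p = 0.00169 by limma). The Opa1 protease Oma1 averaged 9.93 ± 0.11 in WT adults and 8.52 ± 0.12 in WT neonates, a 2.65-fold rise (adjusted p = 0.000228 by limma). Opa1 itself rose the least of the 6, 1.62-fold, and its values were 11.95, 12.46 and 12.48 in WT adults, against 11.58, 11.63 and 11.58 in WT neonates. Its adjusted p was 0.0146 by limma and 0.0512 without WT neonate 3, and its dimmer probe sets did not pass (0.29 and 0.68).

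Pink1 averaged 13.12 ± 0.16 in WT adults and 11.47 ± 0.13 in WT neonates, a 3.15-fold rise (adjusted p = 0.000182 by limma), and its second probe set rose 2.62-fold. Bnip3 averaged 12.35 ± 0.05 in WT adults and 11.004 ± 0.11 in WT neonates, a 2.54-fold rise (adjusted p = 0.000187 by limma). The mitophagy genes parted here, since Fundc1 was 8.99 ± 0.28 in WT adults and 8.91 ± 0.09 in WT neonates (log2 difference 0.08, adjusted p = 0.720 by limma). Mff differed by -0.01 and Fis1 by -0.16, neither past the threshold (adjusted p = 0.959 and 0.278 by limma). Dnm1l differed by -0.12 with an interval that WT adult 1 widened: without that array it was 0.33, with an adjusted p of 0.0459 by limma. That setting called 13966 of all probe sets, against 12285 with all arrays.

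In DN-MCU hearts, 4 of the 10 genes rose in adults relative to neonates (Mfn1, Mfn2, Oma1 and Bnip3) and none fell, where 14.6% of all probe sets were called higher and 33.2% in all. Groups did not overlap, with adults higher, for 4 of 10 genes and 25.6% of probe sets, and the fit of all 12 arrays called 5 genes, Mff as lower, and 46% of probe sets. The WT and DN-MCU comparisons use different arrays, but each shares its adult and neonatal arrays with the comparisons of genotype, so the smaller rises of Pink1 and Bnip3 here restate the difference of effects given above. Mfn1 rose 2.41-fold (log2 1.27, SE 0.24; adjusted p = 0.00946 by limma), with 11.42 ± 0.38 in DN-MCU adults and 10.15 ± 0.17 in DN-MCU neonates. Oma1 rose 1.99-fold (adjusted p = 0.00992 by limma), with 9.68 ± 0.22 in DN-MCU adults and 8.70 ± 0.17 in DN-MCU neonates. Both kept Mfn1 probe sets and Oma1 held these calls when any 1 array was left out.

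The other DN-MCU calls were less firm. Mfn2 rose 1.85-fold (adjusted p = 0.0202 by limma), and the adjusted p was 0.0854, 0.0613 and 0.0769 without DN-MCU neonate 1, 2 or 3. Bnip3 rose 1.55-fold (log2 0.63, SE 0.16; adjusted p = 0.0276 by limma), with 11.91 ± 0.11 in DN-MCU adults and 11.28 ± 0.14 in DN-MCU neonates. Its call ended without DN-MCU adult 2 (0.0695) and without DN-MCU neonate 1, 2 or 3 (0.123, 0.0904 and 0.0686). The second Pink1 probe set rose 1.59-fold with an adjusted p of 0.0436 by limma, and the brighter Pink1 probe set differed by 0.65 (SE 0.44; adjusted p = 0.288), or by 1.15 and past the threshold without DN-MCU adult 1. Opa1 differed by 0.19 (adjusted p = 0.668 by limma), or by 0.51 with an adjusted p of 0.0335 without DN-MCU adult 3. Without that array Fis1 also passed, lower in adults by -0.52 (0.0144), where it was -0.29 with all arrays (0.384). Of all probe sets, 12841 were called without DN-MCU adult 3 and 6794 without DN-MCU adult 1, against 8026 with all arrays. Mff, Dnm1l and Fundc1 differed by -0.44, -0.53 and -0.65, none past the threshold. Without DN-MCU adult 3, Dnm1l differed by 0.14 and Fundc1 by -0.16, again short of it. For the brightest Fundc1 probe set, all DN-MCU adults (8.67, 8.86 and 7.30) lay below all DN-MCU neonates (8.965, 8.906 and 8.904). The share of all probe sets lower in this way is not given here.

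**Figure D4:**
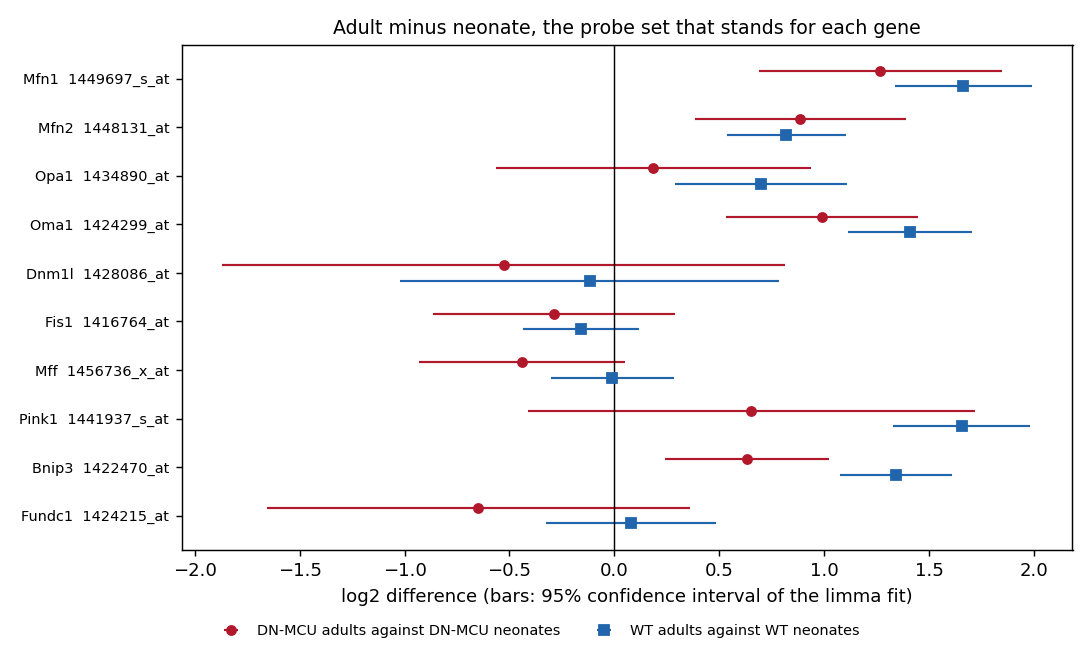
Adult minus neonatal difference (log2, horizontal axis) of the probe set that stands for each of the 10 genes in DN-MCU hearts (circles) and WT hearts (squares), with unadjusted 95% intervals from limma, 3 arrays a group. The intervals of Mfn1, Mfn2, Oma1 and Bnip3 lie right of 0 in both genotypes, those of Opa1 and Pink1 in WT hearts, and those of the fission genes cross 0.

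Markers of other cells moved with age too. The 5 macrophage markers averaged 9.77 to 10.2 in adults and 6.78 to 7.41 in neonates, and none was at or below the filter level. The 4 adipocyte markers on the array averaged 6.16 to 8.27 in adults and 5.10 to 5.20 in neonates, with 2 of them at or below the filter level in adults and 3 in neonates. Most of that gap was Adipoq (means of 10.2 in DN-MCU adults and 10.6 in WT adults, against 2.28 in DN-MCU neonates and 2.18 in WT neonates), whereas Fabp4 was lower in adults (13.7 in DN-MCU adults and 14.4 in WT adults, against 14.7 in DN-MCU neonates and 14.6 in WT neonates). The epicardial list averaged 5.24 to 7.42 in adults and 7.29 to 8.68 in neonates, the fibroblast list 10.8 to 11.5 in adults and 11.58 to 12.05 in neonates, and the cardiomyocyte list 14.998 to 15.3 in adults and 14.6 to 14.8 in neonates. Within the fibroblast list, the means of Col1a1, Col1a2 and Tcf21 were lower in adults, and those of Dcn and Pdgfra were higher. The part of cell composition in the age differences was not tested.

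A list of 68 further genes of the same pathways, of which 62 were measured above the filter, gave the setting. In adults, DN-MCU against WT, none of the 62 passed by limma on the adult arrays, 39 differences were negative and the median was -0.06, where 0.463% of all probe sets passed, while the fit of all 12 arrays called 3, all higher, where it called 4.77% of all probe sets. A count of 3 of 62 is near that share. Those 3 had the smallest p of the list in both fits: Sqstm1, an autophagy receptor that binds ubiquitin (0.53), Marchf5, an outer-membrane ubiquitin ligase that acts on mitofusins and Drp1 (0.50), and Spire1, an actin nucleator (0.75), with adjusted p of 0.286, 0.313 and 0.319 on the adult arrays and 0.043, 0.0437 and 0.0309 in the fit of all 12. Sqstm1 gave 12.51, 12.31 and 12.53 in DN-MCU adults, against 11.94, 11.91 and 11.91 in WT adults, so its groups lay apart, opposite in direction to Pink1 and Bnip3. Next came Gabarapl1, a protein of the autophagosome membrane (0.52), Atg13, of the complex that starts autophagy (0.56), and Spg7, a subunit of an inner-membrane protease (-0.45), all without overlap and none past the threshold (adjusted p = 0.358, 0.361 and 0.383 by limma). Of the 62 genes, 6 were higher and 5 lower without overlap in adults, where 8.46% of all probe sets were lower in this way. The share of all probe sets that were higher in this way is not given here.

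In neonates, DN-MCU against WT, 0 of the 62 passed by limma in either fit, and the median was 0.06. The smallest p were those of Fkbp8, an outer-membrane mitophagy receptor (-0.41, adjusted p = 0.473), Atg13 (0.46, 0.610), Mul1, a mitochondrial ubiquitin ligase (0.29, 0.627), Dnm2, a dynamin (0.52, 0.668), Becn1 (-0.22, 0.681) and Ambra1 (0.37, 0.689), both of the lipid kinase complex that nucleates autophagosomes. Atg13 was thus above WT on every DN-MCU array at both ages, without passing at either, and it was named for its small p at each age. Of the 62 genes, 7 were higher without overlap in neonates, against 7.51% of all probe sets. For the difference of effects, 0 of 62 passed and the median was -0.13.

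With age, 11 of the 62 rose and 3 fell in DN-MCU hearts, with a median of 0.05, where 14.6% of all probe sets rose and 18.6% fell. In WT hearts 19 rose and 7 fell, with a median of 0.22, where 22.6% of all probe sets rose and 28.2% fell. Counts by role rest on few genes each. Of the 19 genes of autophagy adaptors and machinery, 4 rose and 1 fell in DN-MCU hearts and 7 rose and 1 fell in WT hearts. Gabarapl1 rose by 3.21 in DN-MCU and 2.65 in WT hearts, and Sqstm1 by 3.16 in DN-MCU and 2.61 in WT hearts (log2), more than any of the 10 genes did. Of the 5 genes of mitochondrial transport along microtubules, 2 rose in DN-MCU hearts and 3 in WT hearts, among them the motor adaptors Trak1 (1.24 in DN-MCU, 1.13 in WT) and Trak2 (1.09 in DN-MCU, 1.10 in WT). Of the fission adaptors and partners on the list, 3 of 11 rose and 1 fell in DN-MCU hearts and 5 of 11 rose and 1 fell in WT hearts, with the inner-membrane fission protein Mtfp1 at 1.22 in DN-MCU hearts (adjusted p = 0.0644 by limma) and 2.15 in WT hearts (3.27e-05). In the group of further genes of the Pink1 pathway none rose, 1 of 9 fell in DN-MCU hearts and 3 of 9 fell in WT hearts, a share near that of all probe sets, and the protease Htra2 fell by 1.44 in DN-MCU and 1.40 in WT hearts. Trak1, Trak2, Mtfp1 and Htra2 were picked for mention after their values were seen.

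The genes most like a member were found by the Pearson r over the 12 arrays after subtraction of each age mean, for the 3 members with the smallest p in adults. Nearest to Bnip3 were Dcun1d2 (r = 0.951), Hibadh (0.919) and Cep68 (0.914), which differed by -0.56, -0.57 and -0.54 between DN-MCU and WT adults. Nearest to Mfn1 were Abcd3, a peroxisomal transporter (0.967), Ccdc85a (0.964) and Phtf2 (0.956). Nearest to Pink1, by its brighter probe set, were Abat, a mitochondrial transaminase (0.957), Ttll1 (0.955) and Ptgds (0.944). These differed by -0.99, -1.62 and -0.28 between DN-MCU and WT adults. That Pink1 probe set differed by -1.49 on DN-MCU adult 1 from the mean of the other DN-MCU adults, and this array is among the 12. The arrays behind these r share genotype and the adult arrays that stood apart.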

How the data were processed

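Per the labels' protocols, 500 ng of total RNA per sample was converted to cRNA carrying biotin and applied to an Affymetrix 3′ array. The values deposited by the authors are log2 signals in 1 table. The log base follows from their range; the sources used here do not say how they were normalized, and the submitters' processing notes name only Partek. Compression of dim signals by normalization or background can shrink differences of dim probe sets.

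After removal of 64 control probe sets, those with at least 3 of 12 values above the median of the whole table (3.355) were retained, 24176 in all. Gene names came from the platform annotation, in which 34945 probe sets had 1 gene, 932 several and 9160 none. The probe set with the highest mean stands for a gene. Each pair of groups was fitted alone with limma 3.58.1 in R 4.3.3, because adult arrays spread more (median SD 0.400 in DN-MCU adults and 0.226 in WT adults, 0.141 in DN-MCU neonates and 0.132 in WT neonates); the difference of effects used all 12. Calls needed an adjusted p under 0.05, by Benjamini-Hochberg over all kept probe sets, and the procedure was tested on simulated data. The labels call the replicates biological (Bio Rep) but do not say whether each was a separate animal. The p-values therefore measure the spread between these samples, and 3 arrays a group limit the precision.

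Replicate numbers pair the neonatal arrays by their deviations from group means (r of 0.133, 0.223 and 0.283 for numbers 1, 2 and 3), as a hint from the data. By that measure they do not pair the adult arrays (-0.381, 0.410 and -0.428) or the ages. Adult fibroblast means did order alike by number (11.46, 10.80 and 11.01 in DN-MCU adults, 11.499, 10.78 and 10.95 in WT adults). Epicardial means did not (5.53, 5.86 and 5.62 in DN-MCU adults, 7.42, 5.24 and 5.81 in WT adults). Whether adult numbers mark pairs is therefore not known. The members, the pathway list and the markers were chosen with earlier results of these data known. Named from the pathway list were the genes that passed between genotypes and the 6 with the smallest p at each age, with exceptions marked. The alternatives were the fit of all 12 arrays, other filters and normalizations, array weights, the mean over probe sets, replicate blocks and single arrays left out; leaving out DN-MCU adult 3 and WT adult 1 together was chosen after seeing the data. Of the 68 genes on the pathway list, those not among the 62 measured were not analysed here.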

Additional observations from a re-analysis of the deposited data

How the results depend on the processing

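No member gene passed between DN-MCU and WT in adults or in neonates under any setting that uses 1 probe set per gene, and the single-array settings gave 0 each; the second Pink1 probe set passed in adults with array weights only. For the difference of effects, 0 members passed, or 1 (Bnip3) with array weights and 1 without DN-MCU adult 3 and WT adult 1. Counts over all probe sets moved far more. In adults 112 were called, but 1152 with all 12 arrays fitted, 74 with no filter, 964 with array weights, 16 with a replicate block, 57 without DN-MCU adult 3 and WT adult 1, and 17 (without WT adult 3) to 175 (without DN-MCU adult 3) with 1 array left out. In neonates 1 was called, but 4 with all 12 arrays, 2 with array medians subtracted, with the stricter filter or with array weights, 0 with no filter or with the replicate block, and 0 to 3 with 1 array left out. For the difference of effects 190 were called, but 1216 with array weights, 39 with the replicate block, 1112 without both arrays, and 70 to 636 with 1 left out.

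In WT hearts 6 members rose with age, and 5 to 7 passed with 1 array left out; of all probe sets 12285 were called, but 7917 with the stricter filter, and 9908 to 13966 with 1 left out. Dnm1l was 0.33 and passed without WT adult 1, alone or together with DN-MCU adult 3, against -0.12 with all arrays (range with 1 array left out -0.34 to 0.33). The median of the members there was 0.76, or 0.63 with array medians subtracted. In DN-MCU hearts 4 members rose, 2 with a replicate block across ages, and 2 (Mfn1 and Oma1, without DN-MCU neonate 1, 2 or 3) to 6 (with Opa1 and Fis1, without DN-MCU adult 3) passed with 1 left out; of all probe sets 8026 were called, but 4856 with the stricter filter, 12594 with array weights, 12841 without both arrays, and 4543 to 12841 with 1 left out. The fit of all 12 arrays called 5 members there. The median of the members ranged, with 1 array left out, over -0.60 to -0.23 in adults, 0.03 to 0.10 in neonates, -0.67 to -0.28 for the difference of effects, 0.20 to 0.43 for age in DN-MCU hearts and 0.73 to 0.82 for age in WT hearts. The replicate block changed no call of a member between genotypes. The causes were not tested.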
